A study of Homo sapiens with 24 samples.

Results

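The genes described here encode 10 factors that rescue stalled ribosomes and clear their products, taken by gene name for their role: PELO, HBS1L, ABCE1, LTN1, NEMF, GIGYF1, GIGYF2, EDF1, ASCC3 and GCN1. All 10 were among the 19798 genes of the deposited table, and all 10 were among the 10731 kept for testing. The study followed mRNA decay by SLAM-seq in a line of human embryonic kidney origin, HEK293T, in 24 libraries. In the 12 sgCNOT3 libraries, labelled CNOT3-knockout, cells carried lentiviral CRISPR guides that target CNOT3, which belongs to the deadenylase complex CCR4-NOT. In the 12 sgNT libraries the guides were non-targeting. Both genotypes went through puromycin selection, 24 h in 75 µM 4-thiouridine with new medium every 3 h, and a chase in 10 mM UTP, and were sampled 0, 1, 2, 4, 8 and 12 h into the chase with 2 replicates each. Each genotype was made with a pair of guides, and the labels tie no library to either. They also leave unsaid whether the replicates came from separate cultures, and p-values therefore measure only the spread between the 24 libraries, possibly a technical one.

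The measurement is a T-to-C conversion ratio, printed here as a percent. Alkylated 4-thiouridine is read as C, so that conversion marks RNA made before the chase and falls as that RNA is replaced. It says nothing of how much RNA of a gene was present, and neither the knockout nor the identity of the line could be checked from it. The read depth behind each value is unknown. Median conversion over genes was 32.7% and 35.9% in sgCNOT3 and 32.0% and 35.9% in sgNT at 0 h, and 8.54% and 9.84% in sgCNOT3 and 5.17% and 5.73% in sgNT at 12 h. The sgCNOT3 libraries at 2 h had medians of 29.1% and 18.8% and correlated across genes at a Spearman rho of 0.34, those at 4 h at 0.53, and replicates of the other 10 groups at 0.64 to 0.76.

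A ribosome that stops on an mRNA is struck by the one behind it, and the collided pair is the signal that cells read. GCN1 and EDF1 bind collided ribosomes, the ligase ZNF598 marks them with ubiquitin, and the helicase ASCC3 pulls the leading ribosome apart. PELO and the GTPase HBS1L enter stalled ribosomes with an empty A site, and the ATPase ABCE1 then separates the subunits. NEMF holds the large subunit that still carries a nascent chain, the ligase LTN1 ubiquitinates that chain, and GIGYF1 and GIGYF2 act with the cap-binding protein EIF4E2 to stop new initiation on the faulty mRNA. CCR4-NOT also senses slow ribosomes, through CNOT3, and the study asked whether the arginine codons CGG, CGA and AGG mark mRNAs for decay by this route.

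The mRNAs of the 10 factors differed in how much of these codons they carry, counted in frame in 1 coding sequence per gene (GENCODE release 44, GRCh38). The share was 5.41% of codons in EDF1, 5.39% in GIGYF2, 5.12% in GIGYF1, 4.16% in PELO and 3.22% in GCN1. It was 2.49% in HBS1L, 2.23% in ASCC3, 1.86% in NEMF, 1.84% in ABCE1 and 1.53% in LTN1, against a median of 2.85% over 10729 genes. Among all genes LTN1 stood at percentile 12.1 and EDF1 at percentile 93.2. The stretches of 30 codons within 1 exon that held the most CGG, CGA and AGG are shown for the 2 mRNAs whose decay slope differed between genotypes, for the paralogue of one of them, and for the lowest and highest shares. They read 5′ to 3′ on the coding strand, with the 3 codons in capitals where they stood in frame.
PELO: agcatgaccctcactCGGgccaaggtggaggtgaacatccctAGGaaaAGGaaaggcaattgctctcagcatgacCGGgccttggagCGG
GIGYF2: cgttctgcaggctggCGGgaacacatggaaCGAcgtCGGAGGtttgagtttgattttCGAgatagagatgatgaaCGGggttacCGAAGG
GIGYF1: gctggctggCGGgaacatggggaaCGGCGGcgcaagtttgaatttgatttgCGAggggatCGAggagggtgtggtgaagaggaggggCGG
EDF1: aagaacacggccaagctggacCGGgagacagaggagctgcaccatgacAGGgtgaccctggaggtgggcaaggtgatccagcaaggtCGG
LTN1: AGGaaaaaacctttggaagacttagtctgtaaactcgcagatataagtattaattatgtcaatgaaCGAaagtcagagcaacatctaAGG

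The PELO stretch lay at chr5:52800857-52800946 on the plus strand (exon 2, codons 155 to 184) and held 5 of the codons. That of GIGYF2 lay at chr2:232790706-232790795 on the plus strand (exon 10, codons 241 to 270) with 8, and that of GIGYF1 at chr7:100686327-100686416 on the minus strand (exon 11, codons 238 to 267) with 6. That of EDF1 lay at chr9:136863324-136863413 on the minus strand (exon 3, codons 56 to 85) with 3, and that of LTN1 at chr21:28966646-28966735 on the minus strand (exon 10, codons 586 to 615) with 3. A stretch of the same length with at least 8 of the codons was present in 1.86% of genes, with at least 6 in 9.18%, with at least 5 in 22.0% and with at least 3 in 75.7%. For these shares a stretch could span exons, unlike the stretches shown, so the rule for all genes was looser.

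Loss of CNOT3 was set against sgNT by the slope of log2 conversion over the chase (limma interaction model over all genes, Benjamini-Hochberg adjustment, threshold 0.05). Where the sgCNOT3 slope exceeded that of sgNT, so that conversion was lost more slowly there, a gene is termed slower. Of the 10 factors, 2 were slower, PELO and GIGYF2, and 0 were faster, against a background of 21.7% of all genes slower and 0.345% faster. The other 8, from HBS1L at -0.039 to GCN1 at 0.14 log2 units per h, did not pass. The median slope difference of the 10 was 0.019 log2 units per h, and that of all genes was 0.058 (quartiles 0.013 and 0.13). The share of slower members lay near the background. Neither PELO (0.16, adjusted p = 0.17) nor GIGYF2 (0.093, adjusted p = 0.10) passed when libraries were centred on their medians, which sets changes against the median gene. With a pseudocount of 10% of the median at 0 h, which weighs low values less, PELO (0.093, adjusted p = 0.18) and GIGYF2 (0.077, adjusted p = 0.12) did not pass and GCN1 did (0.12, adjusted p = 0.021).

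**Figure D1:**
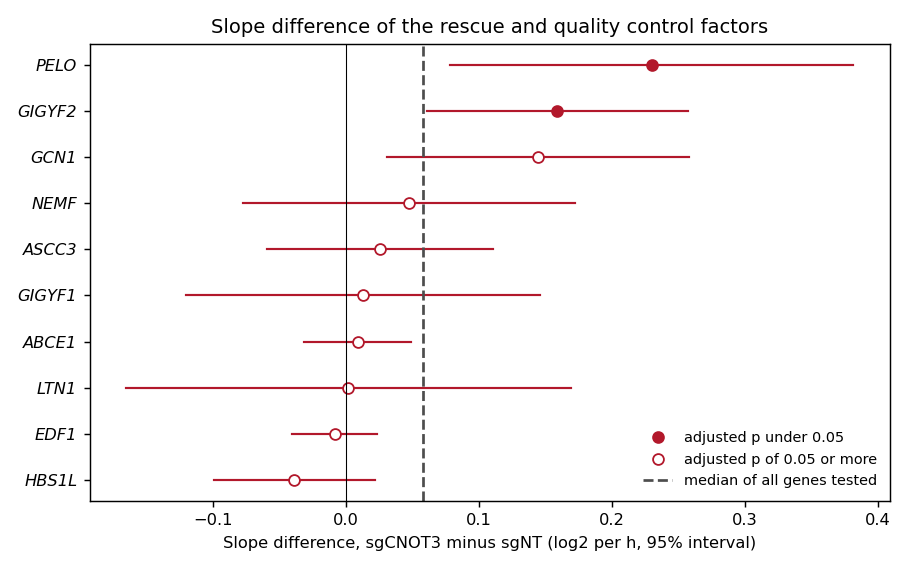
Slope difference of each factor, sgCNOT3 minus sgNT (log2 units per h), with its 95% interval from the limma fit. Filled points, PELO and GIGYF2, have an adjusted p under 0.05, open points do not, and the dashed line is the median of all genes tested (0.058).

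Among the factors that split stalled ribosomes, PELO, which recognises the empty A site, had the largest slope difference of the 10. PELO (ENSG00000152684.11, chromosome 5, 52787916 to 52804044, plus strand) stood at 29.3% and 33.2% in sgCNOT3 after 0 h, 32.0% and 30.4% after 1 h, 40.3% and 32.8% after 2 h, 37.3% and 25.1% after 4 h, 6.31% and 9.94% after 8 h, and 4.44% and 3.09% after 12 h. In sgNT it stood at 44.3% and 35.8% after 0 h, 40.6% and 45.3% after 1 h, 17.6% and 26.5% after 2 h, 9.90% and 7.85% after 4 h, 0.321% and 3.10% after 8 h, and 0% and 2.32% after 12 h. Both sgCNOT3 libraries lay below both sgNT libraries at 0 and 1 h and above them at 2, 4, 8 and 12 h. At 4 h, PELO conversion was 31.2% ± 8.59 in sgCNOT3, against 8.88% ± 1.45 in sgNT (SD, n = 2), which was 99.7% of its mean at 0 h in sgCNOT3 and 22.2% in sgNT.

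The slope of PELO was -0.27 log2 units per h in sgCNOT3 and -0.50 in sgNT, a difference of 0.23 ± 0.073 (SE, adjusted p = 0.027, limma). An exact permutation test that exchanged genotypes within chase times in all 46656 ways gave p = 0.028 (two-sided, unadjusted, 10 genes computed). The call was lost without replicate 1 of sgNT at 12 h, which is listed at 0 (0.18, adjusted p = 0.11), and without replicate 1 of sgCNOT3 at 12 h (0.22, adjusted p = 0.051). Within 0 to 4 h alone, where 0.848% of genes were slower and 0.289% faster, the difference of PELO was 0.58 ± 0.10 (SE, adjusted p = 0.015), and it ranked 179 of 10731 by size. No other member passed within 0 to 4 h.

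At single chase times PELO was higher in sgCNOT3 at 8 h, by 2.46 on the log2 scale (adjusted p = 0.039, limma). It had a difference of 1.76 at 4 h (adjusted p = 0.22) and of 2.09 at 12 h (adjusted p = 0.052), and leaving out a single library moved the difference at 12 h between 0.61, without replicate 1 of sgNT at 12 h, and 3.58, without replicate 2. It passed without that replicate 2 (adjusted p = 0.0018) or without either replicate of sgNT at 8 h (adjusted p = 0.026 each). The difference at 8 h did not pass once libraries were centred on their medians (1.93, adjusted p = 0.14). The PELO gene lies within ITGA1 on the same strand, and whether reads of the 2 genes were told apart is not given in the sources used here.

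HBS1L, the GTPase partner of PELO (chromosome 6, 134960378 to 135103056, minus strand), stood lower in sgCNOT3 both early and late in the chase. It had 31.6% and 24.4% conversion in sgCNOT3 and 36.9% and 37.6% in sgNT at 0 h, 10.9% and 11.2% in sgCNOT3 and 18.1% and 15.9% in sgNT at 8 h, and 5.53% and 10.7% in sgCNOT3 and 12.4% and 12.1% in sgNT at 12 h. The sgCNOT3 libraries lay below the sgNT libraries at 0, 1, 8 and 12 h and overlapped them at 2 and 4 h. Its slope difference was -0.039 ± 0.029 (SE, adjusted p = 0.37, 95% interval -0.099 to 0.022), the lowest of the 10. Without centring, its differences at 0 h (-0.42, adjusted p = 0.57, limma), 8 h (-0.60, adjusted p = 0.11) and 12 h (-0.65, adjusted p = 0.061) did not pass. With each library centred on its median it passed as faster, at -0.10 (adjusted p = 0.028), and as lower at 8 h (-1.12, adjusted p = 0.018) and at 12 h (-1.37, adjusted p = 0.0025). The slope differences of PELO and HBS1L differed by 0.27 (exact permutation p = 0.065, 0.13 adjusted over 2 pairs chosen after their values were seen).

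ABCE1, the ATPase that parts the subunits (chromosome 4, 145098288 to 145129524, plus strand), did not pass in slope. It had 33.9% ± 1.67 conversion in sgCNOT3 and 42.0% ± 2.75 in sgNT at 0 h, and 6.72% ± 1.94 in sgCNOT3 and 7.48% ± 0.21 in sgNT at 12 h (SD, n = 2). The slopes were -0.20 in each, with a difference of 0.0089 ± 0.019 (SE, adjusted p = 0.78, 95% interval -0.031 to 0.049). This was the narrowest interval of the members after EDF1. Like those of HBS1L and EDF1, it did not reach the median of all genes. With centred libraries ABCE1 was lower in sgCNOT3 at 8 h (-0.71, adjusted p = 0.029) and at 12 h (-0.89, adjusted p = 0.0041), and its slope difference was -0.057 (adjusted p = 0.079). Without centring neither time passed, at -0.19 for 8 h (adjusted p = 0.52, limma) and -0.17 for 12 h (adjusted p = 0.51).

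**Figure D2:**
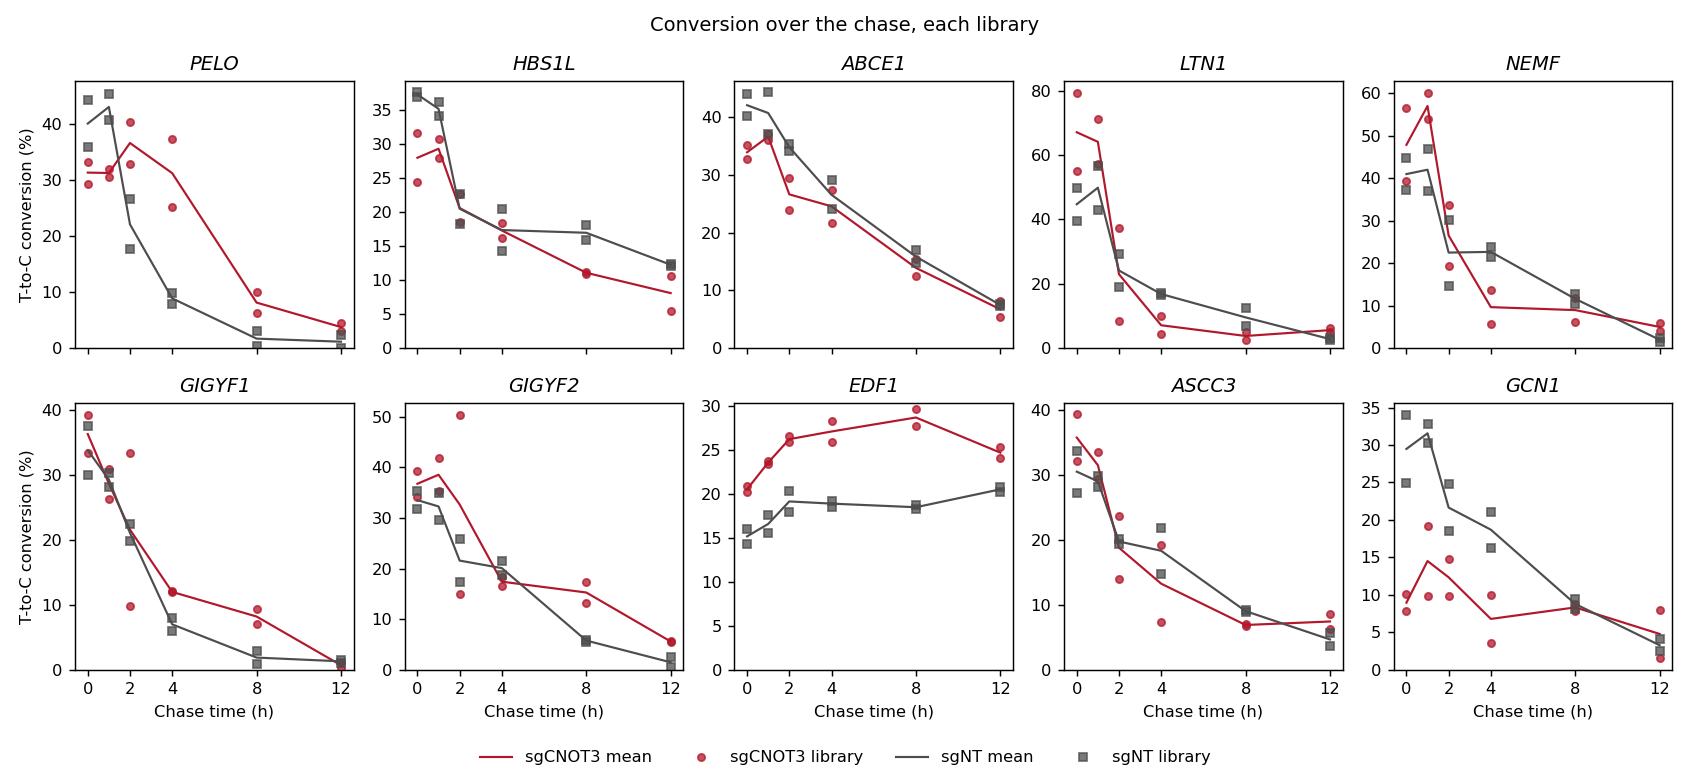
T-to-C conversion (%) of each factor over chase time (h), with sgCNOT3 as red circles and sgNT as grey squares, 1 point per library and a line through the mean of the 2. PELO stayed at 31.2% in sgCNOT3 at 4 h, EDF1 ended the chase above its start in both genotypes, and GCN1 began at 8.96% in sgCNOT3 against 29.5% in sgNT.

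The factors of nascent chain quality control, LTN1 and NEMF, were not slower over the whole chase, and both had lower means in sgCNOT3 in its middle. LTN1 (chromosome 21, 28928144 to 28992956, minus strand) had 55% and 79.2% conversion in sgCNOT3 and 49.8% and 39.7% in sgNT at 0 h. At 4 h it had 9.92% and 4.35% in sgCNOT3 and 16.6% and 17.0% in sgNT, and at 12 h 5% and 6.24% in sgCNOT3 and 3.19% and 2.49% in sgNT. The sgCNOT3 libraries lay above at 0, 1 and 12 h and below at 4 and 8 h, so that the curves crossed on each side of the middle of the chase. Its slope difference was 0.0019 ± 0.081 (SE, adjusted p = 0.99, 95% interval -0.17 to 0.17), the least precise of the 10. Within 0 to 4 h it was -0.49 (adjusted p = 0.31). LTN1 was lower in sgCNOT3 at 8 h with centred libraries (-1.78, adjusted p = 0.032) and did not pass without centring (-1.26, adjusted p = 0.13).

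NEMF (chromosome 14, 49782083 to 49852821, minus strand) also had less conversion left in sgCNOT3 than in sgNT at 4 h. It had 56.5% and 39.3% conversion in sgCNOT3 and 37.3% and 44.8% in sgNT at 0 h, 13.7% and 5.63% in sgCNOT3 and 23.9% and 21.5% in sgNT at 4 h, and 6% and 4.02% in sgCNOT3 and 1.49% and 2.48% in sgNT at 12 h. The slope difference was 0.047 ± 0.060 (SE, adjusted p = 0.61), and within 0 to 4 h it was -0.41 (adjusted p = 0.30). The differences of NEMF at single times were nearest the threshold at 4 h (-1.33, adjusted p = 0.098) and 12 h (1.21, adjusted p = 0.054). The replicates of sgCNOT3 at 2 and 4 h were those that correlated least across all genes, and without them the slope difference of LTN1 was -0.032 (adjusted p = 0.75) and that of NEMF 0.029 (adjusted p = 0.71).

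Of the translational repressors, GIGYF2 was slower over the whole chase and its paralogue GIGYF1 was not. GIGYF2 (ENSG00000204120.16, chromosome 2, 232697299 to 232860605, plus strand) had 39.4% and 34.1% conversion in sgCNOT3 after 0 h, 35.3% and 41.8% after 1 h, 50.3% and 15.0% after 2 h, 18.4% and 16.5% after 4 h, 17.3% and 13.3% after 8 h, and 5.78% and 5.41% after 12 h. In sgNT it had 31.7% and 35.4% after 0 h, 34.9% and 29.6% after 1 h, 17.3% and 25.8% after 2 h, 21.4% and 18.7% after 4 h, 5.58% and 5.98% after 8 h, and 2.47% and 0.487% after 12 h. The genotypes parted at 8 and 12 h, where both sgCNOT3 libraries lay above both sgNT libraries, while at 4 h both lay below and at 2 h the sgCNOT3 replicates were far from each other.

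The slope of GIGYF2 was -0.21 in sgCNOT3 and -0.37 in sgNT, a difference of 0.16 ± 0.047 log2 units per h (SE, adjusted p = 0.019, limma; exact permutation p = 0.083, unadjusted). It was higher in sgCNOT3 at 12 h by 1.96 on the log2 scale (adjusted p = 0.0095), and by 1.24 with centred libraries (adjusted p = 0.047). Without replicate 2 of sgNT at 12 h, its lowest value, the difference at 12 h was 1.08 (adjusted p = 0.12) and the slope difference 0.097 (adjusted p = 0.11), and within 0 to 4 h the slope difference was -0.089 (adjusted p = 0.81). The end of the GIGYF2 gene overlaps SNORC on the same strand (232857270 to 232878708), and how shared reads were counted is not known here.

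GIGYF1 (chromosome 7, 100679507 to 100694250, minus strand) differed between genotypes at 8 h. It had 9.30% and 7.07% conversion in sgCNOT3 and 0.897% and 2.86% in sgNT at 8 h, a difference of 2.09 on the log2 scale (adjusted p = 0.015). At 12 h the libraries overlapped, with 0.290% and 1.12% in sgCNOT3 and 1.09% and 1.51% in sgNT, and the slope difference over the whole chase was 0.013 ± 0.064 (SE, adjusted p = 0.91). Within 0 to 8 h, where 11.6% of genes were slower and 0.224% faster, it was 0.28 (adjusted p = 0.019). With centred libraries GIGYF1 was higher at 8 h (1.56, adjusted p = 0.048) and lower at 12 h (-1.48, adjusted p = 0.032). The slope differences of GIGYF2 and GIGYF1 were not shown to differ (0.15, exact permutation p = 0.38, also 0.38 adjusted over the 2 pairs).

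Of the factors that sense collisions or take collided ribosomes apart, EDF1 was the only member whose slope was above 0, and it was so in both genotypes. EDF1 (ENSG00000107223.13, chromosome 9, 136862119 to 136866308, minus strand) had 20.9% and 20.2% conversion in sgCNOT3 after 0 h, 23.8% and 23.4% after 1 h, 25.9% and 26.6% after 2 h, 28.4% and 25.9% after 4 h, 27.8% and 29.7% after 8 h, and 25.3% and 24.1% after 12 h. In sgNT it had 14.4% and 16.0% after 0 h, 15.6% and 17.7% after 1 h, 18.0% and 20.3% after 2 h, 18.6% and 19.3% after 4 h, 18.3% and 18.8% after 8 h, and 20.2% and 20.9% after 12 h. The 12 sgCNOT3 libraries lay above the sgNT libraries at every chase time. A conversion that rises in a chase is not a decay rate, and 4.34% of genes in sgCNOT3, 1.58% in sgNT and 0.783% in both had a slope above 0.

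The slopes of EDF1 were 0.017 ± 0.011 in sgCNOT3 and 0.026 ± 0.011 in sgNT (SE), with a difference of -0.0085 ± 0.015 (adjusted p = 0.73, 95% interval -0.040 to 0.023). Its level did differ. It was higher in sgCNOT3 by 0.43 on the log2 scale at 0 h, where 0.811% of all genes were higher (adjusted p = 0.038, limma), by 0.50 at 1 h (adjusted p = 0.021), by 0.45 at 2 h (adjusted p = 0.036), by 0.51 at 4 h (adjusted p = 0.012) and by 0.62 at 8 h (adjusted p = 0.0016). At 12 h the difference was 0.26 (adjusted p = 0.080). The call at 0 h was lost in 15 of 24 fits that left out a single library (adjusted p up to 0.28), with differences of 0.35 to 0.51. With each library centred on its median none of the 6 passed, and that at 12 h was -0.45 (adjusted p = 0.13).

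GCN1, which binds collided ribosomes and activates the kinase EIF2AK4, lay below its sgNT level in the early chase. GCN1 (ENSG00000089154.11, chromosome 12, 120127202 to 120194715, minus strand) had 10.1% and 7.79% conversion in sgCNOT3 after 0 h, 19.2% and 9.82% after 1 h, 9.90% and 14.8% after 2 h, 3.59% and 9.99% after 4 h, 7.91% and 8.75% after 8 h, and 1.55% and 8.02% after 12 h. In sgNT it had 24.9% and 34.0% after 0 h, 32.8% and 30.3% after 1 h, 24.7% and 18.6% after 2 h, 21.1% and 16.3% after 4 h, 8.10% and 9.46% after 8 h, and 2.45% and 4.11% after 12 h. Both sgCNOT3 libraries lay below both sgNT libraries at 0, 1, 2 and 4 h, and the groups overlapped at 8 and 12 h.

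The slope of GCN1 was -0.12 in sgCNOT3 and -0.26 in sgNT, a difference of 0.14 ± 0.055 log2 units per h that did not pass (SE, adjusted p = 0.062; exact permutation p = 0.074, unadjusted). It passed without replicate 1 of sgCNOT3 at 12 h (0.21, adjusted p = 0.0032), at 1 h (0.16, adjusted p = 0.038) or at 4 h (0.14, adjusted p = 0.046). No single chase time passed, with differences of -1.68 at 0 h (adjusted p = 0.16) and -1.57 at 4 h (adjusted p = 0.14).

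ASCC3, the helicase of the ASC-1 complex (chromosome 6, 100508194 to 100881372, minus strand), had 35.7% ± 5.09 conversion in sgCNOT3 and 30.5% ± 4.58 in sgNT at 0 h, and 7.43% ± 1.61 in sgCNOT3 and 4.66% ± 1.47 in sgNT at 12 h (SD, n = 2). The sgCNOT3 libraries lay below at 8 h and above at 12 h and overlapped those of sgNT at the other times. The slope difference was 0.026 ± 0.041 (SE, adjusted p = 0.70, 95% interval -0.060 to 0.11).

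**Figure D3:**
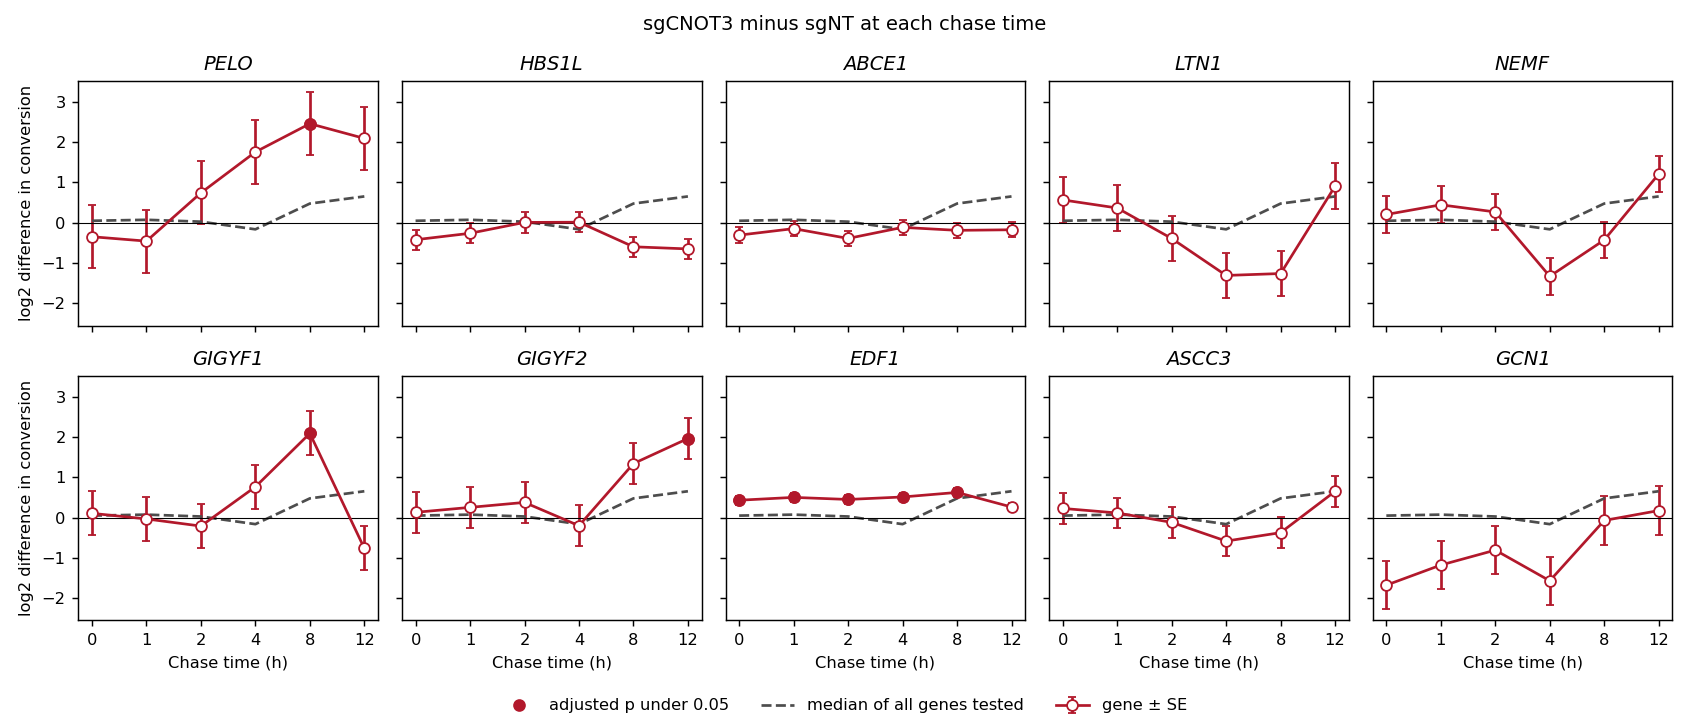
Difference in log2 conversion, sgCNOT3 minus sgNT, of each factor at each chase time (h) with its SE, beside the median of all genes tested (dashed). Filled points have an adjusted p under 0.05: EDF1 at 0, 1, 2, 4 and 8 h, PELO at 8 h, GIGYF1 at 8 h and GIGYF2 at 12 h.

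Over the chase as a whole, members were called higher in sgCNOT3 once each at 0, 1, 2, 4 and 12 h and 3 times at 8 h, and lower at none. The split turned with centred libraries, where 2 calls were higher, GIGYF1 at 8 h and GIGYF2 at 12 h, and 6 were lower, HBS1L and ABCE1 at both 8 and 12 h, LTN1 at 8 h and GIGYF1 at 12 h. With centring, the background at 8 h was 3.91% of genes higher and 5.34% lower, and at 12 h it was 10.1% higher and 14.6% lower. The background of genes higher in sgCNOT3 was 0.811% at 0 h, 0.923% at 1 h, 1.55% at 2 h, 2.14% at 4 h, 18.9% at 8 h and 31.8% at 12 h, and that of genes lower was 4.09%, 2.45%, 2.48%, 5.34%, 1.98% and 2.73% at the same times. All calls at 0 to 4 h were of EDF1. At 12 h both sgCNOT3 libraries lay above both sgNT libraries for 6 of the 10 members, against 51.9% of all genes, and below them for 1, HBS1L, against 8.28%. At 8 h they lay above for 4 members, against 51.8% of all genes, and below for 3, against 9.01%. Earlier in the chase they lay above for 2 members at 0 h, against 29.1% of all genes, for 4 at 1 h, against 31.3%, for 2 at 2 h, against 20.4%, and for 3 at 4 h, against 17.8%. They lay below for 4 members at 0 h, against 25.9% of all genes, for 3 at 1 h, against 22.8%, for 2 at 2 h, against 18.5%, and for 4 at 4 h, against 32.4%. None of these counts was tested against that of all genes.

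The level averaged over the 6 chase times gave 6 calls among the members, in a comparison added after the values had been seen. In sgCNOT3, 3 members were higher, PELO by 1.04 ± 0.32 on the log2 scale (SE, adjusted p = 0.022, limma), GIGYF2 by 0.64 ± 0.21 (adjusted p = 0.030) and EDF1 by 0.46 ± 0.045 (adjusted p = 3.4e-06), against a background of 25.1% of genes. Another 3 were lower, GCN1 at -0.85 ± 0.24 (adjusted p = 0.015), HBS1L at -0.32 ± 0.10 (adjusted p = 0.029) and ABCE1 at -0.22 ± 0.078 (adjusted p = 0.043), against a background of 8.78%. The median over all genes was 0.22. For EDF1 the exact permutation test gave p = 4.29e-05, the smallest it can give here, and 0.025 with centred libraries. With centring the same test gave 0.0012 for GCN1, 0.00073 for ABCE1 (-0.40) and 0.0088 for HBS1L (-0.50). It gave 0.0098 for GIGYF2 and 0.031 for PELO, all unadjusted. For this average EDF1 and GCN1 passed under each pseudocount, with centred libraries, with a replicate block and in all 24 fits that left out a single library. With centred libraries PELO (0.86, adjusted p = 0.062) and GIGYF2 (0.46, adjusted p = 0.069) did not pass. The call was lost in 8 of the 24 fits for HBS1L (adjusted p up to 0.059), in 17 for ABCE1 (up to 0.084) and in 8 for GIGYF2 (up to 0.059), and in 0 for PELO.

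The members did not decay alike in either genotype. In sgCNOT3 GIGYF1 had the steepest slope (-0.39 ± 0.045, SE), followed by LTN1 (-0.32), NEMF (-0.28), PELO (-0.27), GIGYF2 (-0.21), ABCE1 and ASCC3 (-0.20 each), HBS1L (-0.16), GCN1 (-0.12) and EDF1 (0.017). In this order 1 of 9 pairs of neighbours, GCN1 and EDF1, differed by over 2 SE. In sgNT the order was PELO (-0.50 ± 0.052, SE), GIGYF1 (-0.41), GIGYF2 (-0.37), NEMF (-0.33), LTN1 (-0.32), GCN1 (-0.26), ASCC3 (-0.22), ABCE1 (-0.20), HBS1L (-0.12) and EDF1 (0.026), and 2 of 9 pairs differed by over 2 SE, ABCE1 and HBS1L, and HBS1L and EDF1. The median slope over all genes was -0.14 in sgCNOT3 and -0.21 in sgNT.

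**Figure D4:**
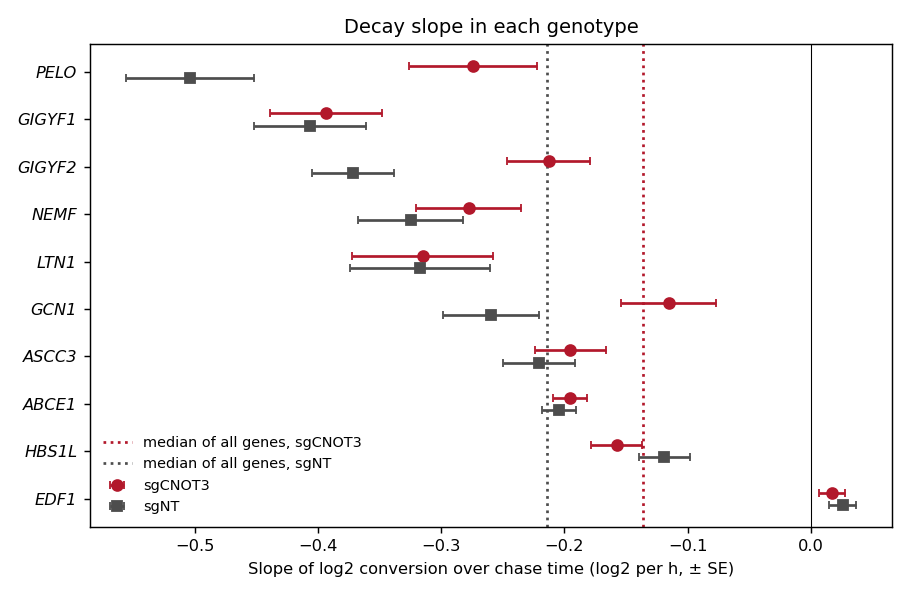
Slope of log2 conversion over chase time (log2 units per h, ± SE) of each factor in sgCNOT3 (red circles) and sgNT (grey squares), ordered by the slope in sgNT, with dotted lines at the median of all genes. PELO lay at -0.27 in sgCNOT3 and -0.50 in sgNT, and EDF1 above 0 in both.

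A half-life from a single exponential could be kept for 8 members and not for EDF1 and GCN1, whose residual standard error exceeded 0.3. PELO had 7.23 h in sgCNOT3 and 2.52 h in sgNT (log2 ratio 1.52), the largest ratio of the 8. Its ratio was 0.84 in replicate 2. In replicate 1 it was 2.19, from a fit that exceeded the residual limit and would be dropped. GIGYF2 had 5.45 h in sgCNOT3 and 3.90 h in sgNT (log2 ratio 0.48, and 0.58 and 0.30 by replicate). For NEMF it was 2.96 h in sgCNOT3 and 3.98 h in sgNT, and for ASCC3 3.11 h in sgCNOT3 and 4.65 h in sgNT, shorter in sgCNOT3 in both replicates. The log2 ratios of HBS1L (0.23), ABCE1 (0.18), LTN1 (-0.90) and GIGYF1 (0.24) had opposite signs in the 2 replicates. Ratios by replicate set libraries of the same number against each other, and replicate numbers did not pair the samples. Over the 7728 genes with a fit kept, the median half-life was 7.50 h in sgCNOT3 and 5.80 h in sgNT, with a median log2 ratio of 0.19. LTN1, NEMF and ASCC3 had ratios below 0 with slope differences above 0, and HBS1L had a ratio above 0 with a slope difference below 0.

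Beside the 10 members, 36 other genes of the same pathways were taken by role, and all 36 were measured. Of these, 6 were slower in sgCNOT3 and 1 faster, and 29 did not pass, with a median slope difference of 0.028 log2 units per h. The share of slower genes, 16.7%, lay near the background of 21.7%, and the difference was not tested. In collision sensing and ubiquitination 2 of 13 were slower, in nascent chain extraction and degradation 2 of 8, among GTPases and termination factors 1 of 6, and among partners of ASCC3 0 of 3, while of 5 factors of mRNA decay on stalled ribosomes 0 were slower and 1 faster.

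ZNF598, the ligase that starts the ubiquitin branch, had a slope difference of 0.015 ± 0.028 (SE, adjusted p = 0.76), with 8.65% and 9.07% conversion left in sgCNOT3 and 6.29% and 8.17% in sgNT at 12 h. EIF4E2, the cap-binding partner of the GIGYF proteins, was slower by 0.056 ± 0.013 (adjusted p = 0.0033), with 23.8% and 25.8% left in sgCNOT3 and 15.2% and 13.7% in sgNT. ANKZF1, which releases nascent chains from the large subunit, was slower by 0.37 ± 0.093 (adjusted p = 0.0067), with 4.59% and 7.01% left in sgCNOT3, while both sgNT libraries at 12 h are listed at 0.

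VCP, the segregase that extracts ubiquitinated chains, was slower by 0.053 ± 0.014 (SE, adjusted p = 0.0088), with 20.6% and 20.5% left in sgCNOT3 and 17.3% and 13.8% in sgNT at 12 h. DRG1, a GTPase of stalled ribosomes, was slower by 0.095 ± 0.019 (adjusted p = 0.00089), with 21.1% and 21.3% left in sgCNOT3 and 10.2% and 7.92% in sgNT. MKRN1, a ubiquitin ligase, was slower by 0.13 ± 0.023 (adjusted p = 0.00057). It began the chase at 22.2% and 18.0% in sgCNOT3 against 45.6% and 50.6% in sgNT. Both sgCNOT3 libraries thus began below both sgNT libraries, as for PELO, HBS1L, ABCE1 and GCN1 and for 25.9% of all genes. The difference of MKRN1 at 0 h, -1.25 on the log2 scale, passed as lower (adjusted p = 0.00027, limma), as for 4.09% of all genes. Those of PELO, HBS1L, ABCE1 and GCN1 at 0 h did not pass (adjusted p from 0.16 for GCN1 to 0.97 for PELO). At 12 h the difference of MKRN1 was 0.37 and did not pass (adjusted p = 0.072).

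RNF25, a ubiquitin ligase of stalled ribosomes, was slower by 0.35 ± 0.12 (SE, adjusted p = 0.042), with 19.2% and 16.2% left in sgCNOT3 and 10.3% and 0% in sgNT at 12 h. Its call was lost in 13 of 24 fits that left out a single library (adjusted p up to 0.20), and that of VCP in 1 (adjusted p = 0.055). DDX6, a helicase of mRNA repression and decapping that binds CCR4-NOT, was the faster gene, at -0.087 ± 0.014 (adjusted p = 0.00014), with 3.72% and 4.39% left in sgCNOT3 and 8.27% and 7.39% in sgNT at 12 h. The direction of EIF4E2 and VCP turned when libraries were centred on their medians (-0.0097 and -0.013), as did that of RNF25 within 0 to 4 h (-0.0080) and that of VCP there (-0.011). Centring left fewer pathway genes slower and more faster, as counted in the section on processing.

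**Figure D5:**
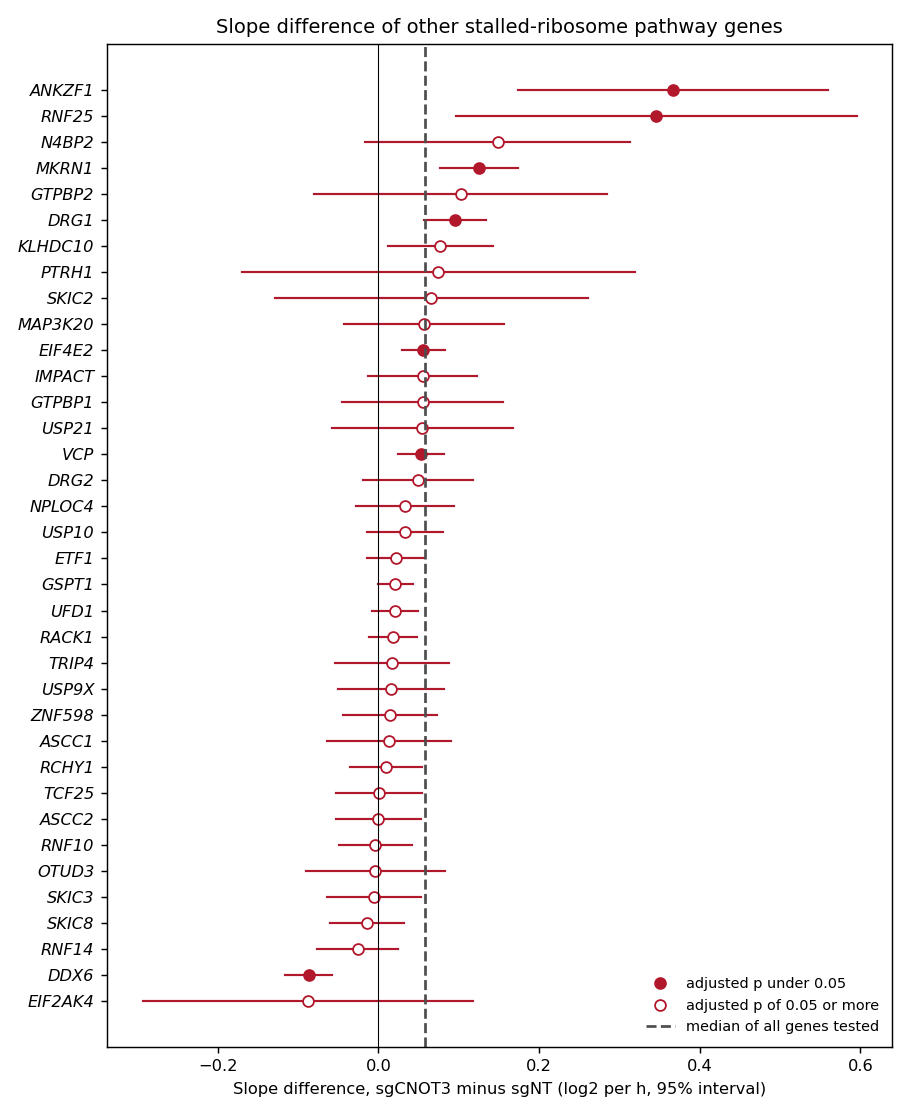
Slope difference, sgCNOT3 minus sgNT (log2 units per h, 95% interval), of 36 other genes of stalled-ribosome handling. Filled points have an adjusted p under 0.05, 6 above 0 and DDX6 below 0, and the dashed line is the median of all genes tested (0.058).

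The order of the members by codon share and by slope difference was not the same. EDF1 and GIGYF1, with 5.41% and 5.12% of codons as CGG, CGA or AGG, had slope differences of -0.0085 and 0.013, whereas GIGYF2 and PELO, with 5.39% and 4.16%, had 0.16 and 0.23. GCN1, with 3.22%, had 0.14, which did not pass. HBS1L, ASCC3, NEMF and ABCE1, with 2.49%, 2.23%, 1.86% and 1.84%, had -0.039, 0.026, 0.047 and 0.0089. LTN1, with the lowest share, had 0.0019. Conversion of EDF1 rose over the chase, so that its slope is not a decay rate. Within 0 to 8 h GIGYF1 was slower (0.28, adjusted p = 0.019, limma) and GIGYF2 did not pass (0.13, adjusted p = 0.23). The share counts the 3 codons alike, whereas the study's score weighted each by its enrichment in CNOT3-bound ribosomes. With 10 genes of unlike precision these are values side by side, and no relation was tested.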

How the data were processed

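The authors deposited 1 table of T-to-C conversion ratios per gene and library, each a fraction from 0 to 1, from 3' end SLAM-seq libraries aligned to GRCh38. The submitters' processing notes list bcl2fastq. The sources used here do not give the aligner, conversion caller or annotation, nor what the ratio is divided by. Every column was matched to a sample by its title.

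Genes were kept if above 0 in the 4 libraries at 0 h and in no fewer than 20 of all 24. Tests were run with limma 3.58.1 (R 4.3.3, trend on, two-sided) on log2(conversion + 0.34 percentage points, 1% of the median at 0 h). The pseudocount shrinks log2 changes of genes near 0, but low values can still carry much weight on this scale. The slope calls of PELO and GIGYF2 did not hold with a pseudocount of 10% of that median, which weighs low values less. The model held genotype, chase time and their interaction, or 12 group means, with Benjamini-Hochberg adjustment over all 10731 genes kept. Half-lives were single exponentials that started at the mean of the genotype at 0 h, with a limit of 24 h, and a fit was dropped if its residual standard error exceeded 0.3. Python 3.11.15, numpy 2.4.6 and pandas 2.3.3 were used. The models were tested on simulated data. Read depth is unknown, so no counting interval was given.

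The 10 members and the lists were chosen with earlier results of these data known. The text names all members, the list genes past the threshold and ZNF598. Alternatives covered the pseudocount, the filter, centring, chase times, the variance model, a replicate block and libraries left out.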

Additional observations from a re-analysis of the deposited data

Results flagged for a closer look

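Of the genes named in the report, 4 differed between genotypes by unequal amounts at the 6 chase times (F test over the differences at each time, limma, adjusted over all genes, where 15.6% of genes passed). They were DRG1 (adjusted p = 0.00024), MKRN1 (adjusted p = 0.00087), DDX6 (adjusted p = 0.0017) and EIF4E2 (adjusted p = 0.013). None of the 10 rescue and quality control factors passed this test, with adjusted p from 0.12 (NEMF) to 0.95 (ABCE1). The test was added after the data had been seen.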

How the results depend on the processing

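PELO and GIGYF2 were both slower without a trend, with a robust fit, with no filter, with conversions divided by the start, with the smaller pseudocount, and without the sgCNOT3 libraries at 2 h (PELO 0.24, GIGYF2 0.16) or at 2 and 4 h (0.25 and 0.15). With the pseudocount at 10% of the median 1 member was slower (GCN1), as within 0 to 4 h (PELO) and within 1 to 12 h (GIGYF2), and with each library centred on its median 0 were slower and 1, HBS1L, was faster. Centring left 1 slower and 3 faster of the other pathway genes, and 586 slower and 654 faster of all genes. Within 0 to 8 h, 3 pathway genes and 1244 of all genes were slower and 24 of all genes faster, and within 0 to 4 h 0 pathway genes were slower, 0 faster, and 91 of all genes slower. With the larger pseudocount 20 of all genes were faster.

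Leaving out a single library gave 1 to 3 slower members, 4 to 7 slower pathway genes, and 1791 to 2545 slower and 25 to 49 faster of all genes. Leaving out a whole replicate gave 1 slower member each time (GCN1 without replicate 1, PELO without replicate 2), 0 to 1 slower and 0 to 1 faster pathway genes, and 426 to 532 slower and 1 to 22 faster of all genes. Without replicate 1 the slope difference of PELO was 0.086 (adjusted p = 0.47) and that of GIGYF2 0.24 (adjusted p = 0.077), and without replicate 2 they were 0.37 (adjusted p = 0.039) and 0.082 (adjusted p = 0.41). PELO had no value where every library had to be above 0, and there GCN1 passed (0.14, adjusted p = 0.0495). The cause of these changes was not tested.

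Slope differences that turned sign were, with centred libraries, ABCE1 (-0.057), LTN1 (-0.064), NEMF (-0.018), GIGYF1 (-0.053), ASCC3 (-0.040), ZNF598 (-0.051), EIF4E2 (-0.0097) and VCP (-0.013). Within 0 to 8 h they were LTN1 (-0.24), NEMF (-0.13), ASCC3 (-0.081) and EDF1 (0.022). Within 0 to 4 h they were HBS1L (0.11), LTN1 (-0.49), NEMF (-0.41), GIGYF2 (-0.089), EDF1 (0.015), ASCC3 (-0.21), RNF25 (-0.0080) and VCP (-0.011). LTN1 also turned with the larger pseudocount (-0.012) and without the sgCNOT3 libraries at 2 h (-0.014) or at 2 and 4 h (-0.032), and GIGYF1 with the smaller pseudocount (-0.00397). With centred libraries the difference at 12 h turned for EDF1 (-0.45), ASCC3 (-0.066) and GCN1 (-0.54), and the average over the chase for NEMF (-0.12).

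With a single library or replicate left out, signs turned within these ranges: slope differences of LTN1 from -0.062 to 0.066, GIGYF1 from -0.014 to 0.076, HBS1L from -0.083 to 0.0052, ABCE1 from -0.015 to 0.033, ASCC3 from -0.0095 to 0.040 and EDF1 from -0.015 to 0.0012, the difference at 0 h of NEMF from -0.056 to 0.47 and of GIGYF1 from -0.054 to 0.26, the difference at 12 h of GCN1 from -0.90 to 1.25 and of ABCE1 from -0.46 to 0.11, and the average over the chase of ASCC3 from -0.13 to 0.099 and of NEMF from -0.041 to 0.16.

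Replicate numbers did not pair the samples: deviations of same-numbered libraries correlated at -0.038 to 0.021 between the genotypes at the 6 chase times. Of 66 pairs of groups 2 were over 0.1, sgCNOT3 at 2 h with sgCNOT3 at 4 h (0.22) and at 8 h (0.12). With the replicate number as a block, 2 members, 2325 of all genes and 6 pathway genes were slower, and the difference of PELO at 12 h passed (2.09, adjusted p = 0.0495). No other call of a member at 0 h, at 12 h, over the slope or over the average changed under the block.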
